A study of Homo sapiens with 24 samples.

Results

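The control arm of a CRISPR interference (CRISPRi) time course was compared between day 3 and day 0 in cytosolic RNA. The cells were K562, an established human line from a chronic myelogenous leukaemia, and they carried sgGal4, the control guide of the study. In the same series another guide, sgDDX3, was aimed at DDX3X, an X-linked RNA helicase gene. The comparison used 4 of the 24 libraries of the series, 2 at day 0 and 2 at day 3, all from sgGal4 cells, chosen by guide, day and assay as the labels give them. The comparison asks what changed in these cells over the 3 days when the guide was not directed at the gene under study. Every group, day 0 included, is labelled with 50 ng/ml doxycycline to induce the knockdown. Whether the day 0 cells had received it is not stated, so the effect of the drug, of the induced repressor and of time in culture cannot be told apart. The medium given in the labels is DMEM with fetal bovine serum. The sources used here do not name the repressor or the promoter that drives it, or say whether the line is 1 clone. Separate cultures are not stated for the 2 replicates of each group. The p-values therefore reflect only the spread between libraries of a group, which may be technical. That spread was estimated over all 12 RNA libraries of the series, both guides and 3 days, and not from these 4 alone.

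The 4 libraries held 17152557 and 14342540 counts at day 0, and 43256563 and 12307651 at day 3. Day 3 replicate 1 was the deepest of the 12 RNA libraries of the series, which ranged from 10266619 to 43256563 counts. It also had the largest share of the nuclear RNAs MALAT1 and NEAT1 among the 4 libraries. That share was 0.706% and 0.681% of counts at day 0, and 0.848% and 0.722% at day 3. Over the 12 RNA libraries it ranged from 0.681% to 1.171%. The defining genes of K562 were present. The summed level of the 13 genes of the K562 list, which includes the transferrin receptor gene TFRC, was 2377 and 2455 counts per 1000000 of the library (CPM) at day 0 and 2011 and 2148 CPM at day 3. CPM are scaled here by the normalization factors of the fit. Of that list only HBG1, a fetal globin gene nearly identical to HBG2, was under 1 CPM, and reads of the pair may be shared. Markers of other cell types were in part expressed. Under 1 CPM in each of the 4 libraries were 5 of 10 myeloid, 7 of 10 megakaryocytic, 5 of 8 lymphoid, 5 of 7 epithelial and 6 of 8 fibroblast markers. The summed levels were 130.3 to 176.2 CPM for the myeloid list and 19.59 to 22.08 CPM for the megakaryocytic list. They were 45.82 to 52.74 CPM for the lymphoid, 31.46 to 35.99 CPM for the epithelial and 1.121 to 2.496 CPM for the fibroblast list. MPO and ELANE of 10 myeloid markers, PF4, PPBP and FLI1 of 10 megakaryocytic markers, CD2 and MS4A1 of 8 lymphoid markers, CDH1, KRT5, KRT14 and KRT17 of 7 epithelial markers, and COL1A2, COL3A1, PDGFRA and FAP of 8 fibroblast markers had no counts in any of the 4 libraries. A count of 0 allows up to 3 counts, or 0.0694 to 0.244 CPM in these libraries, counting error only.

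K562 cells are erythroleukaemic: they express globins and heme enzymes, take up iron through transferrin and its receptor, and depend on the BCR-ABL1 kinase, which signals through STAT5. Cells short of amino acids, or with stressed mitochondria, phosphorylate the initiation factor eIF2, and the transcription factor ATF4 is then translated and turns on genes for amino acid synthesis, uptake and tRNA charging. Low oxygen acts through HIF factors, which turn on glycolytic genes. Sterol-regulated SREBP factors do the same for cholesterol synthesis. In bulk RNA, a change in the share of cells with a given state and a change of RNA per cell cannot be told apart.

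From day 0 to day 3, 1038 of 18287 tested genes (5.68%) passed an adjusted p of 0.05 in edgeR's quasi-likelihood test. Of these, 623 rose (3.41% of the tested genes) and 415 fell (2.27%). In all 1038 the libraries of the 2 days did not overlap. Remarks below on libraries that did not overlap therefore describe the values and add nothing to a pass. Over all tested genes 27.0% had higher and 26.5% lower libraries at day 3 without overlap. The changes of the genes that passed were mostly below 2-fold. The median log2 change was 0.51 among genes that rose and -0.37 among those that fell, and 91 rose and 16 fell by at least 2-fold. With a mean of at least 10 CPM, 8 rose and 2 fell by that much. Genes that rose had a median level of 22.4 CPM and those that fell 64.8 CPM, against 13.4 CPM over all tested genes, whose median log2 change was 0.01. Protein-coding genes made up 88.7% of those that rose and 94.2% of those that fell, against 78.2% of all tested genes with a RefSeq type. The count depended strongly on single libraries. It was 182 without day 0 replicate 1, 227 without day 0 replicate 2, 101 without day 3 replicate 1 and 672 without day 3 replicate 2. DESeq2 called 431 higher and 410 lower, so 51.2% of its calls were higher against 60.0% in edgeR. With only the 4 libraries in the fit, 1274 passed higher and 1313 lower.

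The gene aimed at in the other arm is the check on the labels. DDX3X (chrX:41333308-41364472; GRCh38.p14, RefSeq, as for every position below) was at 215 and 203 CPM at day 0 and 185 and 174 CPM at day 3 in sgGal4 cells, a log2 change of -0.22 ± 0.09 (SE) that did not pass (adjusted p = 0.194). The day 3 libraries were below the day 0 libraries, and DDX3X did pass as lower with only the 6 sgGal4 RNA libraries in the fit (adjusted p = 0.0104) or only the 4 libraries compared (adjusted p = 0.00805). In sgDDX3 cells DDX3X went from 175 and 185 CPM to 39 and 33.7 CPM, a log2 change of -2.29 ± 0.11 that passed. The 5 tested genes of the list of X-chromosome neighbours of DDX3X had log2 changes of -0.27 to -0.03 in sgGal4 cells. None passed in edgeR or DESeq2, and none reached an unadjusted p of 0.05, against 20.6% of all tested genes. ZNF10, the human gene from which the KRAB repressor domain of CRISPRi constructs is commonly taken, had a log2 change of 0.28, did not pass in either tool and did not reach an unadjusted p of 0.05.

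Most genes for making amino acids and one-carbon units rose. The list of serine, proline and one-carbon synthesis had 22 tested members, of which 13 passed, each of them higher, with a median log2 change over the list of 0.34. PHGDH (chr1:119711934-119744215), which catalyses the first step of serine synthesis, was at 128 and 121 CPM at day 0 and 280.0 and 246 CPM at day 3 (2.12-fold, log2 1.09 ± 0.11, adjusted p = 4.3e-06). ASNS (chr7:97851677-97928441), asparagine synthetase, went from 96.2 and 94.7 CPM to 193 and 169.6 CPM (log2 0.93 ± 0.15, adjusted p = 0.00111). Both day 3 libraries were well above both day 0 libraries for each gene. PCK2, the mitochondrial enzyme that makes phosphoenolpyruvate, went from 174 and 175 CPM to 293 and 263 CPM (log2 0.67 ± 0.09). MTHFD1L, which releases formate from mitochondrial one-carbon units, was at 78.8 and 83.9 CPM and then 115 and 115 CPM (log2 0.50 ± 0.08). The other members that rose, by log2 change, were ASS1 0.90, ALDH1L2 0.78, PSPH 0.53, SHMT2 0.50, GOT1 0.42, MTHFD2 0.39, PSAT1 0.36, PYCR1 0.31 and CBS 0.28. They cover serine (PSAT1, PSPH), glycine and mitochondrial folate (SHMT2, MTHFD2, ALDH1L2), arginine (ASS1), proline (PYCR1), aspartate (GOT1) and the entry to cysteine synthesis (CBS). Left out in turn, day 0 replicate 1, day 0 replicate 2, day 3 replicate 1 and day 3 replicate 2 left 5, 6, 4 and 9 members higher. MTHFD1L did not pass without day 0 replicate 1 (adjusted p = 0.0517). ASNS did not pass without day 3 replicate 1 (adjusted p = 0.0542).

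In the list of ATF4 targets and stress genes 9 of 24 tested members passed, each higher, and the list median was 0.27. TRIB3, a pseudokinase induced by ATF4, went from 169 and 177 CPM to 336 and 287 CPM (log2 0.85 ± 0.12, adjusted p = 0.00046). ATF5, a transcription factor of the same response, went from 35.2 and 32.2 CPM to 102 and 65.5 CPM (log2 1.34 ± 0.21). The ATF5 values at day 3 lay far apart, though both were above day 0. GPT2, mitochondrial alanine aminotransferase, was at 81.2 and 87.5 CPM and then 130.1 and 123 CPM (log2 0.59 ± 0.09). The remaining members that rose were NUPR1 1.41, DDIT3 0.65, CEBPB 0.47, GDF15 0.39, CARS1 0.30 and SESN2 0.28 on the log2 scale. NUPR1 was a rare RNA, at 1.24 and 0.712 CPM at day 0. ATF4 itself was at 666 and 682 CPM and then 759 and 775 CPM (log2 0.19 ± 0.07) and did not pass (adjusted p = 0.135). CHAC1, which degrades glutathione and is a common marker of the response, had a log2 change of 0.24 ± 0.12 (adjusted p = 0.239), and ATF3 0.18 ± 0.11 (adjusted p = 0.391). With the 4 libraries left out in the order given above, 4, 5, 2 and 7 members passed. ATF5 did not pass without day 3 replicate 1 (adjusted p = 0.0773).

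Amino acid transporters went both ways. Of 17 tested, 6 rose and 3 fell. SLC6A9, a glycine transporter, went from 38.5 and 33.3 CPM to 69.4 and 67.7 CPM (log2 0.93 ± 0.09, adjusted p = 3.9e-06), and SLC1A4 0.63, SLC38A10 0.41, SLC7A5 0.37, SLC3A2 0.28 and SLC7A1 0.26 rose less on the log2 scale. SLC7A5 and SLC3A2 encode the 2 chains of the large neutral amino acid transporter. SLC6A6, the taurine transporter, fell from 62.5 and 62.9 CPM to 37.6 and 45.3 CPM (log2 -0.62 ± 0.10), as did SLC36A4, from 5.25 and 6.19 CPM to 2.69 and 2.74 CPM (log2 -1.07 ± 0.19). For each gene the libraries of the 2 days did not overlap. The third that fell was SLC38A5, a glutamine transporter, at -0.35. SLC7A11, the cystine transporter, had a log2 change of 0.19 ± 0.11 (adjusted p = 0.358). Cytosolic tRNA synthetases, which load amino acids onto tRNA, had 8 members higher and 1 lower of 20, with a median of 0.17. MARS1 went from 366 and 364 CPM to 523 and 501 CPM (log2 0.49 ± 0.06, adjusted p = 0.00013). SARS1 was at 160.4 and 165 CPM and then 244 and 230.0 CPM (log2 0.54 ± 0.07), and YARS1 at 469 and 469 CPM and then 637 and 632 CPM (log2 0.44 ± 0.07). All 3 were higher at day 3 by several times the gap between replicates. The others that rose were WARS1 0.57, GARS1 0.40, EPRS1 0.33, CARS1 0.30 and AARS1 0.26. Left out in the same order, the libraries left 1, 3, 1 and 4 transporters and 3, 4, 3 and 6 synthetases higher, and 2, 2, 0 and 3 transporters lower. SLC6A6 and SLC36A4 did not pass without day 3 replicate 1 (adjusted p = 0.0843 and 0.0919, in this order).

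ATF4 binds with C/EBP partners to a composite element whose core is TGATGNAA. The core was searched on both strands in the RefSeq promoters, 250 bases before to 50 after each gene's start, and was found in 3.67% of all 27305 promoters and in 1.61% of the 11023 promoters of tested genes. Among members with a promoter in the table, it was in 3 of 9 one-carbon genes that rose, 2 of 6 transporters, 3 of 7 synthetases and 1 of 7 genes of the ATF4 list. Over all tested members, risen or not, it was in 3 of 16 one-carbon genes, 3 of 15 transporters, 6 of 16 synthetases and 3 of 20 genes of the ATF4 list. A match is a description of these letters and not a measured binding site. The stretches below are shown because these genes rose and carry the core before the start. Capitals mark the core, which reads TTGCATCA where it lies on the other strand. They are at chr7:97872447-97872498 (minus strand), chr6:150866335-150866386 (plus), chr10:99430793-99430844 (minus) and chr16:70289664-70289715 (minus), and each is printed on its gene's strand.
ASNS: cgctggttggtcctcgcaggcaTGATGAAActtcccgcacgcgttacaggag
MTHFD1L: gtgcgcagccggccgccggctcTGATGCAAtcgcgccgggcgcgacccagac
GOT1: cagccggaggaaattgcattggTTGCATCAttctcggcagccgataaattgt
AARS1: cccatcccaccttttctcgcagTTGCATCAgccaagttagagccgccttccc

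**Figure D1:**
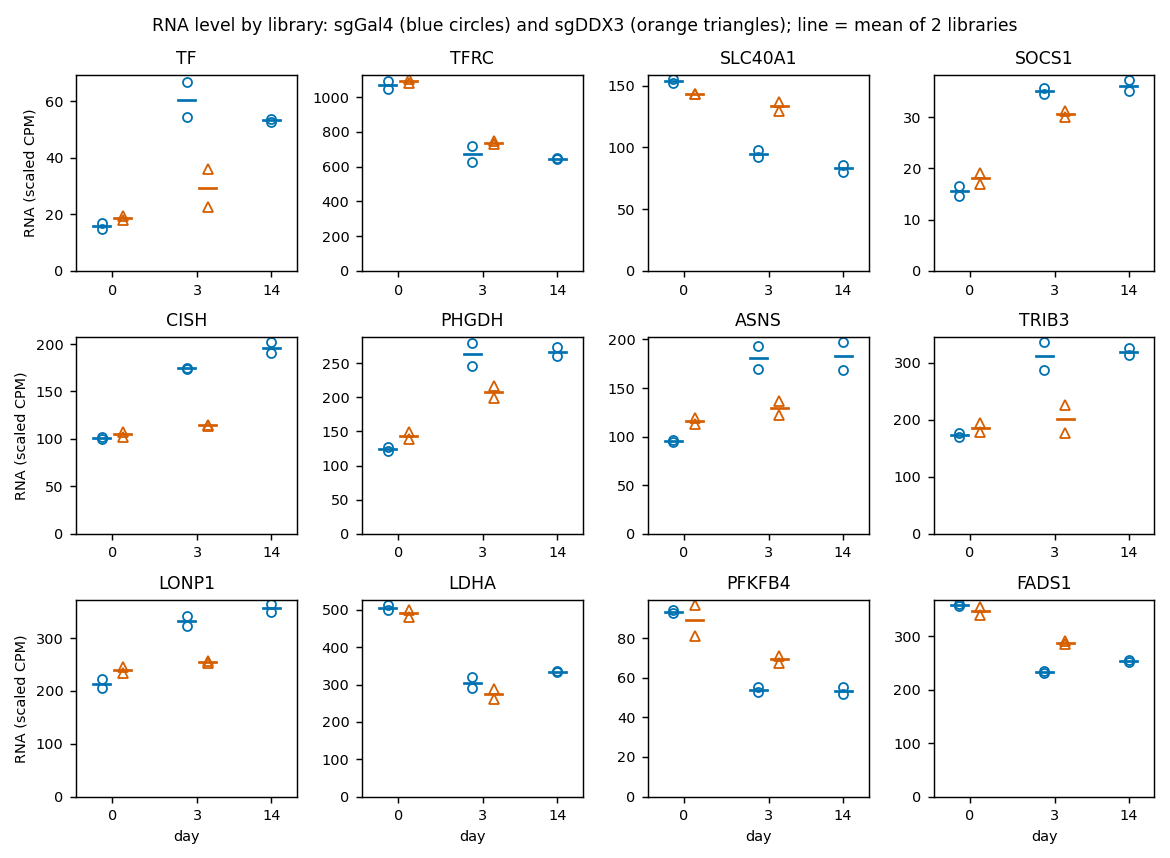
RNA level of 12 genes in scaled CPM (vertical axes start at 0) by day in single libraries of sgGal4 cells (blue circles, days 0, 3 and 14) and sgDDX3 cells (orange triangles, days 0 and 3). Short lines are means of 2 libraries. In sgGal4 cells TF, SOCS1, CISH, PHGDH, ASNS, TRIB3 and LONP1 stood higher at day 3 than at day 0, and TFRC, SLC40A1, LDHA, PFKFB4 and FADS1 stood lower, with no overlap between the 2 days.

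Among mitochondrial genes few passed. Few did so over all tested genes too, where 3.41% rose and 2.27% fell. LONP1 (chr19:5691834-5720452), the protease of the mitochondrial matrix, went from 222 and 206 CPM to 341 and 323 CPM (log2 0.64 ± 0.07, adjusted p = 9.9e-06). It was the only one of 16 tested genes of the mitochondrial unfolded protein response to pass. The chaperones of that list did not pass, with log2 changes of -0.17 ± 0.06 for HSPD1, -0.33 ± 0.10 for HSPE1 (adjusted p = 0.063) and 0.10 ± 0.07 for HSPA9. In this list 1 member was lower without day 3 replicate 2, 1 with no low-count filter and 3 with only the 6 sgGal4 libraries in the fit. HAX1, a mitochondrial anti-apoptotic protein and no member of a list, went from 89.2 and 89.7 CPM to 142 and 143 CPM (log2 0.67 ± 0.08, adjusted p = 5.2e-05), with the day 3 libraries close together and above day 0. The 13 mRNAs encoded in mitochondrial DNA had log2 changes of -0.29 to -0.01, median -0.14. None passed in the fit of all 12 libraries in edgeR or in DESeq2, and 5 had an unadjusted p under 0.05, against 20.6% of all tested genes. With no low-count filter 4 passed as lower, and with only the 6 sgGal4 libraries 7 did. Their summed level was 66365 and 70139 CPM at day 0 and 63884 and 61583 CPM at day 3, so the sums did not overlap. Among nuclear subunits of oxidative phosphorylation 1 of 75 passed, SDHD of complex II, which went from 41.6 and 41.4 CPM to 32 and 32.7 CPM (log2 -0.36 ± 0.10). Of 77 mitochondrial ribosomal proteins 2 passed, MRPL19 (-0.35 ± 0.08) and MRPL42 (-0.30 ± 0.07), both lower. Day 3 libraries lay below both day 0 libraries in 9 of the 13 mitochondrially encoded mRNAs and above in 0. For the 75 nuclear subunits it was 27 below and 4 above, and for the 77 ribosomal proteins 22 and 12. The shares over all tested genes were 26.5% lower and 27.0% higher without overlap. SDHD, MRPL19 and MRPL42 did not pass without day 0 replicate 1 (adjusted p = 0.2, 0.182 and 0.235, in this order). SDHD, MRPL19 and MRPL42 did not pass without day 0 replicate 2 (adjusted p = 0.168, 0.0856 and 0.0687, in this order). SDHD, MRPL19 and MRPL42 did not pass without day 3 replicate 1 (adjusted p = 0.301, 0.347 and 0.254, in this order). SDHD did not pass without day 3 replicate 2 (adjusted p = 0.086).

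Many glycolytic and hypoxia-responsive genes fell. Of 31 tested members, 13 passed lower and 1 higher, and the median was -0.25. LDHA (chr11:18394563-18408425), lactate dehydrogenase A, went from 514 and 499 CPM to 290.0 and 319 CPM (1.67-fold lower, log2 -0.74 ± 0.07, adjusted p = 3.6e-06). PFKFB4 (chr3:48517684-48563136), which sets the level of the glycolytic activator fructose 2,6-bisphosphate, went from 93.9 and 92.5 CPM to 52.5 and 55.2 CPM (log2 -0.79 ± 0.09). PDK1, the kinase that turns off pyruvate dehydrogenase, was at 61.4 and 58.1 CPM and then 41.4 and 38.1 CPM (log2 -0.58 ± 0.09). In all 3 genes the day 3 libraries were below both day 0 libraries. The other members that fell were ALDOC -0.58, BNIP3 -0.53, PGAM1 -0.41, SLC2A3 -0.40, KDM3A -0.37, P4HA1 -0.36, PGK1 -0.35, HK2 -0.35, GPI -0.30 and ALDOA -0.30 in log2 change, from the glucose transporter (SLC2A3) and hexokinase (HK2) through aldolase to phosphoglycerate mutase. BNIP3, a mitophagy receptor, KDM3A, a histone demethylase, and P4HA1, a collagen prolyl hydroxylase, are HIF targets outside glycolysis. VEGFA, the angiogenic growth factor and also a HIF target, rose from 125 and 123 CPM to 164 and 144 CPM (log2 0.32 ± 0.08, adjusted p = 0.0191). Several members did not pass, such as ENO1 (-0.26 ± 0.09, adjusted p = 0.0936), PKM (-0.19 ± 0.09, 0.242) and GAPDH (-0.16 ± 0.07, 0.208). Left out in the order above, the libraries left 6, 7, 4 and 10 members lower. VEGFA did not pass without day 0 replicate 1, day 0 replicate 2 or day 3 replicate 1, where no member of the list was higher.

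Copies of 2 glycolytic genes were also among the genes that fell most. LDHAP4, a pseudogene of LDHA, had a log2 change of -0.73 ± 0.12, and PGAM4, a near copy of PGAM1, -0.73 ± 0.13. Their values are uncertain, because their reads may belong to the parent genes. LDHAP4 and PGAM4 did not pass without day 3 replicate 1 (adjusted p = 0.112 and 0.0965, in this order). Among glucose-sensing arrestins and their regulators 1 of 7 passed: ARRDC4, a target of the glucose sensor MondoA, rose from 21.1 and 22.5 CPM to 37.1 and 31.1 CPM (log2 0.67 ± 0.12). TXNIP, the best known gene of that list, had 0.12 ± 0.07 (adjusted p = 0.382). ARRDC4 did not pass without day 0 replicate 1 (adjusted p = 0.0825). ARRDC4 did not pass without day 3 replicate 1 (adjusted p = 0.16).

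The letters ACGTGC, part of the hypoxia element bound by HIF, were searched in the same way. They were in 6.87% of all promoters and 8.65% of those of tested genes, in 8 of the 27 promoters of tested glycolysis and hypoxia genes, and in 5 of the 12 of those that fell. The E-box CACGTG, which overlaps this motif wherever GCACGTGC occurs, was in 7.43% of all promoters, 10.3% of those of tested genes, 5 of the same 27 and 3 of the same 12. The stretches of LDHA (chr11:18394355-18394516, plus strand), PGK1 (chrX:78104042-78104091, plus) and BNIP3 (chr10:131982029-131982080, minus) are shown because these genes fell and hold the motif. Capitals mark it, as GCACGT where it lies on the other strand, and the BNIP3 stretch holds it on both strands at 1 place.
LDHA: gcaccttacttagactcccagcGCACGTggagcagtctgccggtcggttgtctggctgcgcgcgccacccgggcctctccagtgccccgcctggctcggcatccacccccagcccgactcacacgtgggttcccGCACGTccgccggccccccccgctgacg
PGK1: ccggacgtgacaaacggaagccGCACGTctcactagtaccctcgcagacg
BNIP3: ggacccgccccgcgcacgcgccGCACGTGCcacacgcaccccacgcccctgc

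The genes of iron traffic TF, TFRC and SLC40A1 had the largest changes of their list, and they were the only ones of 16 tested to pass. TF (chr3:133661998-133796641), which encodes transferrin, the iron carrier of plasma, went from 17 and 14.9 CPM to 66.8 and 54.4 CPM (3.83-fold, log2 1.94 ± 0.18, adjusted p = 3.6e-06). This was the largest rise among genes with a mean of at least 10 CPM, and both day 3 libraries were more than 3 times both day 0 libraries. TFRC (chr3:196049284-196082090), the transferrin receptor, went from 1044 and 1094 CPM to 624 and 717 CPM (log2 -0.67 ± 0.07, adjusted p = 4.3e-06). SLC40A1 (chr2:189560590-189580786), the iron exporter ferroportin, went from 155 and 152 CPM to 92.4 and 97.7 CPM (log2 -0.69 ± 0.07). Receptor and exporter thus both stood lower at day 3 while the carrier stood higher. The ferritin chains FTH1 and FTL had log2 changes of 0.19 ± 0.08 and -0.01 ± 0.06 and did not pass (adjusted p = 0.171 and 0.96). TF, TFRC and SLC40A1 passed under every alternative tried, with each of the 4 libraries left out in turn.

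Erythroid genes split: of 41 tested, 5 rose and 4 fell, with a median of 0.15, against 3.41% and 2.27% of all tested genes. ALAS2, the first enzyme of heme synthesis in erythroid cells, rose from 99.5 and 97.9 CPM to 132 and 122 CPM (log2 0.37 ± 0.07, adjusted p = 0.00442). CPOX, a later enzyme of the same pathway, fell from 94.4 and 90.6 CPM to 67.1 and 65.1 CPM (log2 -0.48 ± 0.07, adjusted p = 0.0005). NFE2, an erythroid transcription factor, fell from 152 and 169.5 CPM to 112 and 129 CPM (log2 -0.42 ± 0.08). Heme synthesis therefore held genes on both sides. The other genes that rose were the globin genes HBZ (0.44) and HBG2 (0.42, whose near copy HBG1 may share its reads), the heme enzyme ALAD (0.42) and the transcription factor TAL1 (0.32). GFI1B, a repressor of erythroid cells, fell (-0.38), as did LMO2, the partner of TAL1, from 172 and 177 CPM to 126 and 146 CPM (log2 -0.36 ± 0.08). GATA1, the master regulator of the lineage, had -0.11 ± 0.07 (adjusted p = 0.459). With the libraries left out in the order above, 0, 0, 2 and 3 erythroid members were higher and 2, 1, 1 and 4 lower. ALAS2 and LMO2 did not pass without day 0 replicate 1 (adjusted p = 0.083 and 0.0683, in this order). NFE2, ALAS2 and LMO2 did not pass without day 0 replicate 2 (adjusted p = 0.0993, 0.0762 and 0.0961, in this order). NFE2, ALAS2 and LMO2 did not pass without day 3 replicate 1 (adjusted p = 0.167, 0.157 and 0.237, in this order).

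The feedback inhibitors of cytokine signalling SOCS1, CISH and SOCS3 rose. SOCS1 (chr16:11254417-11256204) went from 14.6 and 16.6 CPM to 35.7 and 34.5 CPM (2.27-fold, log2 1.18 ± 0.10, adjusted p = 1.5e-06), and CISH (chr3:50606489-50611774) from 102 and 100.3 CPM to 174 and 175 CPM (log2 0.79 ± 0.07, adjusted p = 1.7e-06). Both encode SH2 proteins that STAT5 turns on and that then damp it. In both genes the gap between days was many times the gap between replicates. Of 15 tested genes of the STAT5 and cytokine list 4 passed, each higher, with a list median of 0.05. The others were SOCS3 (0.36) and BCL6, a transcriptional repressor, which was rare, at 3.72 and 2.92 CPM and then 8.02 and 6.2 CPM (log2 1.14 ± 0.21). Members that did not pass included PIM1, a kinase and STAT5 target (0.21 ± 0.07, adjusted p = 0.0831), SOCS2 (0.22 ± 0.08, 0.0917) and STAT5A (-0.08 ± 0.07, 0.528). The libraries left out in turn, in the order above, left 3, 2, 2 and 3 members higher. BCL6 did not pass without day 0 replicate 2 (adjusted p = 0.0658). BCL6 did not pass without day 3 replicate 1 (adjusted p = 0.188).

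The STAT element TTCNNNGAA, a motif chosen after these values were seen, was in 7.88% of all promoters and 6.3% of those of tested genes. It was in 2 of the 13 promoters of the STAT5 list, those of CISH and BCL6, which are among its 4 genes that rose. The stretch before the CISH start (chr3:50611856-50612024, minus strand) is shown because it holds 4 copies, in capitals. The pattern is its own reverse complement, so it reads the same on both strands.
CISH: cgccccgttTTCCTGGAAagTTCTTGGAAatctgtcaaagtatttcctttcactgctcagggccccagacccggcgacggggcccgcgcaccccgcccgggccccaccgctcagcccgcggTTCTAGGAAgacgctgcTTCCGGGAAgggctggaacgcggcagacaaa

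Immediate early genes, which growth factors and stress turn on within minutes, had 2 members higher and 1 lower of 25, with a median of -0.06. The shares over all tested genes were 3.41% higher and 2.27% lower. JUN rose from 10.4 and 10.0 CPM to 18 and 15.6 CPM (log2 0.74 ± 0.15, adjusted p = 0.00525). EGR3 rose from 0.708 and 0.854 CPM to 2.46 and 1.61 CPM (log2 1.5 ± 0.31), a rare RNA. EGR1, a related zinc-finger factor, fell from 120.2 and 122 CPM to 91.5 and 83 CPM (log2 -0.47 ± 0.08), so EGR1 and EGR3 went opposite ways. FOS had 0.07 ± 0.37 (adjusted p = 0.941) and MYC 0.02 ± 0.07 (adjusted p = 0.925). JUN and EGR3 did not pass without day 0 replicate 1 (adjusted p = 0.0858 and 0.129, in this order). JUN did not pass without day 0 replicate 2 (adjusted p = 0.0721). JUN and EGR3 did not pass without day 3 replicate 1 (adjusted p = 0.206 and 0.326, in this order).

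A set of cholesterol genes fell. Of 24 tested, 8 passed, each lower, and the median was -0.23. HMGCS1, an early enzyme of the mevalonate pathway, went from 117 and 111 CPM to 82.9 and 92 CPM (log2 -0.39 ± 0.07, adjusted p = 0.0032). SQLE, squalene epoxidase, was at 146 and 142 CPM and then 109 and 115 CPM (log2 -0.37 ± 0.07). The day 3 libraries were below day 0 in both. Others that fell were HSD17B7 -0.51, INSIG1 -0.44, IDI1 -0.44 and STARD4 -0.30. INSIG1 retains the SREBP complex in the endoplasmic reticulum. Left out in the order above, the libraries left 3, 2, 0 and 7 members lower. HMGCS1 and SQLE did not pass without day 0 replicate 1 (adjusted p = 0.0811 and 0.069, in this order). HMGCS1 and SQLE did not pass without day 3 replicate 1 (adjusted p = 0.143 and 0.109, in this order).

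The sterol regulatory element, searched on both strands, was in 0.154% of all promoters, in 1 of 18 of the list and in none of the 5 of its promoters in the table whose genes fell. The CCAAT box, which SREBP promoters often hold, was in 15 of the same 18 promoters, against 35.7% of all promoters and 36.6% of those of tested genes. Of the 14 tested genes of fatty acid synthesis and desaturation, 2 fell and 1 rose, against 2.27% and 3.41% of all tested genes. The neighbours FADS1 and FADS2, which encode 2 steps of the same polyunsaturated pathway, went opposite ways. FADS1 went from 361 and 356 CPM to 232 and 235 CPM (log2 -0.62 ± 0.07, adjusted p = 1.3e-05), and FADS2 from 18.6 and 20.6 CPM to 27.7 and 26.9 CPM (log2 0.49 ± 0.10, adjusted p = 0.00578). FADS1 lies at chr11:61799627-61817003 and FADS2 at chr11:61816203-61867354. ACLY, which makes cytosolic acetyl-CoA, was at 289 and 280.2 CPM and then 236 and 238 CPM (log2 -0.26 ± 0.08). ACLY did not pass with day 3 replicate 1 thinned to the depth of its partner (adjusted p = 0.066). FADS2 and ACLY did not pass without day 0 replicate 1 (adjusted p = 0.163 and 0.271, in this order). ACLY did not pass without day 0 replicate 2 (adjusted p = 0.171). FADS2 and ACLY did not pass without day 3 replicate 1 (adjusted p = 0.141 and 0.296, in this order). ACLY did not pass without day 3 replicate 2 (adjusted p = 0.129).

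**Figure D2:**
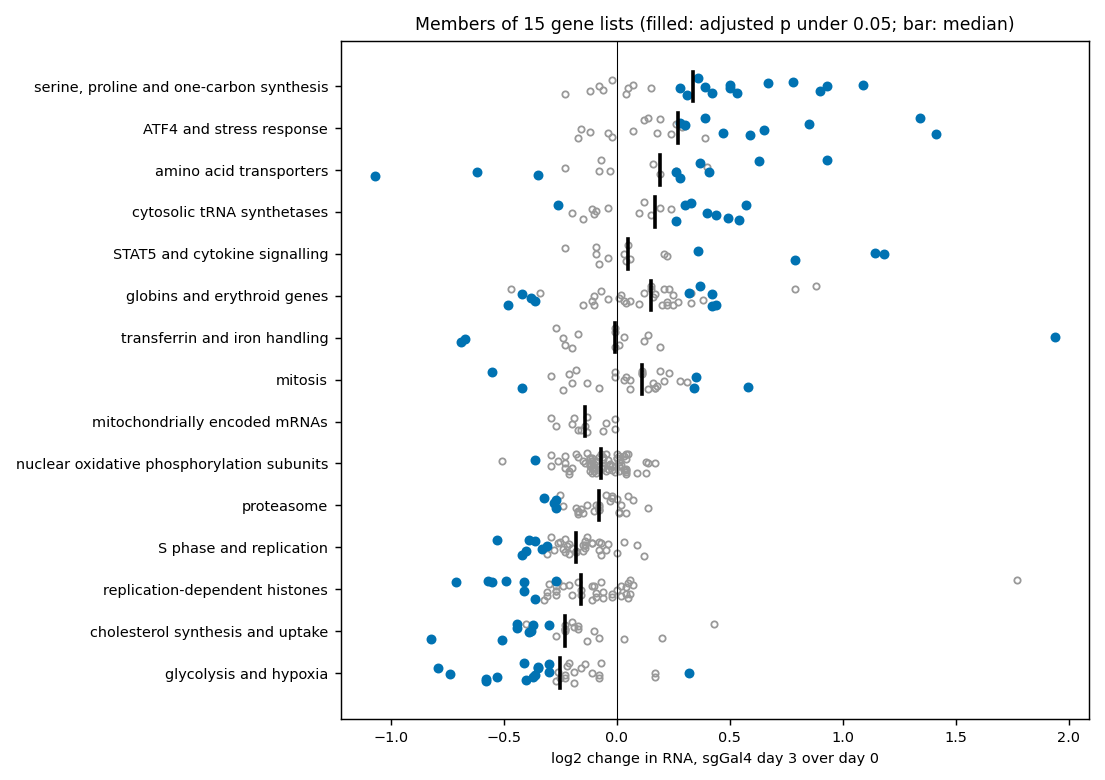
Log2 change in RNA from day 0 to day 3 in sgGal4 cells (horizontal axis) for each tested member of 15 gene lists (rows). Filled points passed an adjusted p of 0.05, open points did not, and black bars are list medians, from 0.34 for serine, proline and one-carbon synthesis to -0.25 for glycolysis and hypoxia.

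Some genes of DNA replication fell. Of 40 tested genes of S phase and replication, 7 passed, each lower, with a median of -0.18. PCNA, the sliding clamp of DNA polymerases, went from 206 and 201 CPM to 131 and 152 CPM (log2 -0.53 ± 0.08, adjusted p = 0.00057). MCM4, a subunit of the replicative helicase, was at 204 and 196 CPM and then 146 and 153 CPM (log2 -0.42 ± 0.08), and CDC45, which loads with it, at 291 and 293 CPM and then 226 and 240.2 CPM (log2 -0.33 ± 0.07). The libraries of the 2 days did not overlap in any of the 3. The others were RFC3 -0.40, CDC6 -0.39, RRM2 -0.36 and FEN1 -0.31. Replication-dependent histone genes, which are transcribed in S phase, had 8 members lower of 44 tested and a median of -0.16. H1-3, a linker histone, went from 319.7 and 315 CPM to 168 and 223 CPM (log2 -0.71 ± 0.10), and the core histone H2BC13 from 130.1 and 130.1 CPM to 82.4 and 94.2 CPM (log2 -0.57 ± 0.07). H2BC5 was at 222 and 237 CPM and then 157 and 171 CPM (log2 -0.49 ± 0.08). Histone genes are near copies of each other, so these values are uncertain. The CCAAT box was in 33 of 40 histone promoters in the table. In the order above, leaving out 1 library gave 1, 2, 1 and 6 S phase genes and 5, 4, 2 and 12 histone genes lower. MCM4 and CDC45 did not pass without day 0 replicate 1 (adjusted p = 0.0591 and 0.0796, in this order). CDC45 did not pass without day 0 replicate 2 (adjusted p = 0.0791). MCM4, CDC45 and H2BC5 did not pass without day 3 replicate 1 (adjusted p = 0.0843, 0.166 and 0.0518, in this order).

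Mitotic genes went both ways, with 3 higher and 2 lower of 31 tested and a median of 0.11. Of all tested genes 3.41% rose and 2.27% fell. BUB1 and MAD2L1, which act in the spindle checkpoint, were the members that fell: BUB1 from 150.5 and 145 CPM to 99.4 and 103 CPM (log2 -0.55 ± 0.07, adjusted p = 0.00022) and MAD2L1 from 114 and 118 CPM to 79.8 and 94.8 CPM (log2 -0.42 ± 0.08). PLK1, a kinase of mitotic entry, rose from 102 and 107 CPM to 134 and 132 CPM (log2 0.35 ± 0.07). CDC20, the activator of the anaphase complex (0.34), and CENPE, a kinetochore motor (0.58), also rose. MKI67 had 0.03 ± 0.08 (adjusted p = 0.864). With the libraries left out in the order above, 0, 1, 0 and 2 mitotic members were higher and 2, 1, 1 and 2 lower, so neither CDC20 nor CENPE passed without day 0 replicate 1 or without day 3 replicate 1. PLK1 did not pass without day 0 replicate 1 (adjusted p = 0.146). MAD2L1 did not pass without day 0 replicate 2 (adjusted p = 0.0716). MAD2L1 and PLK1 did not pass without day 3 replicate 1 (adjusted p = 0.206 and 0.108, in this order).

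Several genes outside these lists were among those with the largest rises at a mean of at least 10 CPM. PRSS8, prostasin, a membrane serine protease, went from 6.02 and 5.2 CPM to 16.3 and 13.4 CPM (log2 1.43 ± 0.18, adjusted p = 9e-05). SDC3, a syndecan proteoglycan, was at 17.4 and 18.4 CPM and then 45.5 and 34.3 CPM (log2 1.19 ± 0.12), and UNC5B, a netrin receptor, at 24.4 and 26.8 CPM and then 64.5 and 43.6 CPM (log2 1.11 ± 0.16). In these 3 genes the lower day 3 library was at least 1.5 times the higher day 0 library. AKNA, an AT-hook protein, went from 20.4 and 19.3 CPM to 53.7 and 33.4 CPM (log2 1.18 ± 0.22) with day 3 replicates that lay far apart, and the membrane protein gene TMEM154 from 12.2 and 10.8 CPM to 23.8 and 19.5 CPM (log2 0.94 ± 0.22). CYP2F2P, a cytochrome P450 pseudogene whose reads may belong to related genes, had 0.92 ± 0.11. AKNA and TMEM154 did not pass in DESeq2 (adjusted p = 0.0629 and 0.207, in this order). AKNA and TMEM154 did not pass without day 0 replicate 1 (adjusted p = 0.0513 and 0.112, in this order). AKNA and TMEM154 did not pass without day 0 replicate 2 (adjusted p = 0.05 and 0.141, in this order). AKNA and TMEM154 did not pass without day 3 replicate 1 (adjusted p = 0.213 and 0.288, in this order).

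Among genes of at least 10 CPM that fell most, SELPLG, the P-selectin ligand of blood cells, went from 29.9 and 28.4 CPM to 13.2 and 16 CPM (2.05-fold lower, log2 -1.04 ± 0.11, adjusted p = 5.8e-06). SIGLEC6, a sialic acid receptor, was at 16.2 and 16.4 CPM and then 9.14 and 7.81 CPM (log2 -0.91 ± 0.13). F2RL3, the thrombin receptor PAR4, went from 17.7 and 16.9 CPM to 10.0 and 8.94 CPM (log2 -0.85 ± 0.14). All 3 are surface proteins, and their day 3 libraries were below both day 0 libraries. AIF1, an actin-binding protein of myeloid cells, went from 13.6 and 14.1 CPM to 7.27 and 7.81 CPM (log2 -0.89 ± 0.13), and PPFIA4, a liprin scaffold protein, from 22.6 and 19.4 CPM to 13.1 and 11.6 CPM (log2 -0.75 ± 0.12). These 5 genes passed under every alternative tried. The myeloid marker list had 2 of 5 tested members higher, the granulocyte colony-stimulating factor receptor CSF3R (57.1 and 65.1 CPM, then 95.6 and 70.6 CPM, log2 0.46 ± 0.13) and the integrin ITGAM (6.43 and 6.76 CPM, then 11.7 and 8.21 CPM, log2 0.66 ± 0.17). Its 10 markers summed to 130 and 140.4 CPM at day 0 and 176 and 147 CPM at day 3, and CD14 and CSF1R were under 1 CPM. The part of other cells in these changes was not tested. CSF3R and ITGAM did not pass in DESeq2 (adjusted p = 0.148 and 0.0566, in this order). ITGAM did not pass with day 3 replicate 1 thinned to the depth of its partner (adjusted p = 0.0905). CSF3R and ITGAM did not pass without day 0 replicate 1 (adjusted p = 0.329 and 0.235, in this order). CSF3R and ITGAM did not pass without day 0 replicate 2 (adjusted p = 0.0877 and 0.132, in this order). CSF3R and ITGAM did not pass without day 3 replicate 1 (adjusted p = 0.609 and 0.611, in this order).

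Genes of ribosomal proteins were nearly all slightly lower at day 3, and how many passed depended on the fit. Of 47 large and 32 small subunit ribosomal protein genes tested, 46 and 31 had log2 changes below 0, with medians of -0.13 and -0.14, and 41 and 29 had day 3 libraries below both day 0 libraries. Over all tested genes 26.5% had lower and 27.0% higher libraries at day 3 without overlap. In sgDDX3 RNA the medians of the 2 lists were -0.05 and -0.06. In the fit of all 12 libraries 2 of each list passed: RPL35A (-0.25 ± 0.07), RPL38 (-0.22 ± 0.06), RPS13 (-0.27 ± 0.07) and RPS18 (-0.25 ± 0.06). RPS18 went from 2004 and 1981 CPM to 1639 and 1717 CPM. DESeq2 called 5 large and 2 small subunit genes lower, edgeR with no low-count filter 9 and 8, and edgeR with only the 6 sgGal4 libraries 18 and 16. Among elongation factors and other mRNAs with a terminal oligopyrimidine start, EEF1B2 (-0.27 ± 0.07) and EIF4A2 (-0.24 ± 0.07) passed of 22 tested. EIF4A2, a DEAD-box helicase of initiation, was the only one of 12 tested DEAD-box paralogs of DDX3X to pass. GNL3, nucleostemin, was the only one of 35 ribosome biogenesis genes to pass, going from 179.9 and 179 CPM to 121 and 133 CPM (log2 -0.50 ± 0.08). RPL38 did not pass with no low-count filter (adjusted p = 0.0555). RPL38 did not pass with day 3 replicate 1 thinned to the depth of its partner (adjusted p = 0.0512). RPL35A, RPL38, RPS13, RPS18, EEF1B2 and EIF4A2 did not pass without day 0 replicate 1 (adjusted p = 0.233, 0.287, 0.172, 0.159, 0.16 and 0.226, in this order). RPL35A, RPL38, RPS13, RPS18, EEF1B2 and EIF4A2 did not pass without day 0 replicate 2 (adjusted p = 0.203, 0.172, 0.195, 0.122, 0.168 and 0.168, in this order). RPL35A, RPL38, RPS13, RPS18, EEF1B2, EIF4A2 and GNL3 did not pass without day 3 replicate 1 (adjusted p = 0.463, 0.412, 0.353, 0.227, 0.307, 0.326 and 0.0698, in this order). RPL38 and EIF4A2 did not pass without day 3 replicate 2 (adjusted p = 0.0517 and 0.0644, in this order).

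Some genes of protein quality control passed. Over all tested genes 3.41% rose and 2.27% fell. Of 31 proteasome genes 4 passed, each lower: PSMD1 -0.32, PSMD13 -0.28, PSMB2 -0.27 and PSMD11 -0.27. With the libraries left out in the order above, 0, 0, 0 and 1 proteasome genes passed. Of 22 genes of endoplasmic reticulum stress 2 rose, the sensor kinase ERN1 (0.39 ± 0.11) and the factor it activates, XBP1 (0.30 ± 0.07). The chaperone HSPA5 had 0.25 ± 0.08 (adjusted p = 0.0846). Of 20 cytosolic heat shock genes HSPA1B rose (0.41 ± 0.12), and its near copy HSPA1A may share its reads. ERN1 did not pass in DESeq2 (adjusted p = 0.0725). HSPA1B did not pass with RLE size factors in edgeR (adjusted p = 0.0501). ERN1 and HSPA1B did not pass with day 3 replicate 1 thinned to the depth of its partner (adjusted p = 0.101 and 0.123, in this order). PSMD13, PSMB2, PSMD11, XBP1, ERN1 and HSPA1B did not pass without day 0 replicate 1 (adjusted p = 0.212, 0.188, 0.277, 0.22, 0.225 and 0.261, in this order). PSMD13, PSMB2, PSMD11, XBP1, ERN1 and HSPA1B did not pass without day 0 replicate 2 (adjusted p = 0.132, 0.163, 0.121, 0.132, 0.258 and 0.22, in this order). PSMD13, PSMB2, PSMD11, XBP1, ERN1 and HSPA1B did not pass without day 3 replicate 1 (adjusted p = 0.289, 0.434, 0.32, 0.173, 0.761 and 0.135, in this order). PSMD13, PSMD11, XBP1 and HSPA1B did not pass without day 3 replicate 2 (adjusted p = 0.0654, 0.0799, 0.108 and 0.232, in this order). GSR, glutathione reductase, was the only one of 18 targets of the antioxidant factor NRF2 to pass, going from 133 and 127 CPM to 103 and 108 CPM (log2 -0.31 ± 0.07). TIGAR, a fructose bisphosphatase at 1.12 and 1.14 CPM and then 2.33 and 2.17 CPM, was the only one of 15 p53 targets to pass (log2 1.01 ± 0.28). K562 cells lack functional p53. TIGAR did not pass with day 3 replicate 1 thinned to the depth of its partner (adjusted p = 0.0641). GSR and TIGAR did not pass without day 0 replicate 1 (adjusted p = 0.169 and 0.245, in this order). GSR and TIGAR did not pass without day 0 replicate 2 (adjusted p = 0.0706 and 0.18, in this order). GSR and TIGAR did not pass without day 3 replicate 1 (adjusted p = 0.216 and 0.337, in this order). TIGAR did not pass without day 3 replicate 2 (adjusted p = 0.0714).

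A few other lists held 1 to 3 genes that passed, where 3.41% of all tested genes rose and 2.27% fell. Counts this small are not read as a change of the list. Of 30 lysosome and autophagy genes 3 rose, among them the sialidase NEU1 (0.36 ± 0.08) and the autophagy protein GABARAPL1 (0.39 ± 0.10). SLC30A10, a manganese exporter, was the only one of 8 metallothionein and metal transporter genes to pass (12.8 and 14 CPM, then 22.2 and 20.1 CPM, log2 0.67 ± 0.11). Of 22 interferon response genes IFITM2 (-0.46 ± 0.09) and IFITM1 (-0.28 ± 0.07), near copies of each other, fell. Among 21 host genes of small nucleolar RNAs, SNHG4 went from 28 and 30.8 CPM to 20.8 and 18 CPM (log2 -0.58 ± 0.10) and SNHG3 from 232 and 241 CPM to 166 and 184 CPM (log2 -0.44 ± 0.09). NEAT1, a nuclear RNA, rose by 0.26 ± 0.07 on the log2 scale, and its day 3 level of 631 and 531 CPM in cytosolic RNA compares with 494 and 477 CPM at day 0. The 8 tested nuclear-retained RNAs summed to 8097.2 and 7902.4 CPM at day 0 and 9262.8 and 8019.0 CPM at day 3. Day 3 replicate 1 thus stood apart from its partner. Whether it held more nuclear RNA for technical reasons was not tested. NEAT1 did not pass with day 3 replicate 1 thinned to the depth of its partner (adjusted p = 0.0562). NEU1, GABARAPL1, IFITM1 and NEAT1 did not pass without day 0 replicate 1 (adjusted p = 0.207, 0.21, 0.211 and 0.221, in this order). NEU1, GABARAPL1, IFITM1, SNHG3 and NEAT1 did not pass without day 0 replicate 2 (adjusted p = 0.0617, 0.13, 0.111, 0.0762 and 0.282, in this order). NEU1, GABARAPL1, SLC30A10, IFITM2, IFITM1, SNHG3 and NEAT1 did not pass without day 3 replicate 1 (adjusted p = 0.134, 0.28, 0.0701, 0.0843, 0.127, 0.163 and 0.598, in this order). NEU1, GABARAPL1 and IFITM1 did not pass without day 3 replicate 2 (adjusted p = 0.0583, 0.0531 and 0.132, in this order). No tested marker of the megakaryocytic (3), lymphoid (4), epithelial (2) and fibroblast (2) lists passed in edgeR or DESeq2, and none had an unadjusted p under 0.05.

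With only the 6 sgGal4 RNA libraries in the fit, 2557 genes passed in all, 1277 higher and 1280 lower. The fit of 12 libraries had 623 and 415 of 18287 tested. Calls were thus more common over all genes, and many lists had more members that passed. The list sizes given next are the members tested in the fit of 12 libraries. Lower with 6 libraries were 21 of 31 glycolysis and hypoxia genes, 15 of 24 cholesterol genes, 7 of 14 fatty acid genes, 21 of 44 histone genes and 16 of 40 S phase genes. Also lower were 10 of 75 oxidative phosphorylation subunits, 11 of 35 ribosome biogenesis genes and 7 of 21 host genes of small nucleolar RNAs. For mitochondrial ribosomal proteins it was 5 of 77, not far from the share over all genes. In the lists named from glycolysis to small nucleolar RNA hosts, 2, 2, 1, 1, 0, 0, 0 and 2 members were higher, in this order. Among mitochondrial ribosomal proteins 1 was higher. Higher were 14 of 24 genes of the ATF4 list, 10 of 17 transporters, 14 of 41 erythroid genes, 6 of 31 mitotic genes and 6 of 30 lysosome and autophagy genes. The same lists had 0, 4, 5, 3 and 1 members lower, in this order. One-carbon synthesis again had 13 of 22 members higher, and now 1 lower. Of 25 immediate early genes 2 were higher and 5 lower.

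The sgDDX3 cells went through the same days with other libraries, and there 3746 of 18287 genes (20.5%) passed from day 0 to day 3. That count was 2254 without its day 0 replicate 1 and 2065 without its day 0 replicate 2. Of the 623 genes that rose in sgGal4 cells, 323 (51.8%) also rose in sgDDX3 cells, which is 16% of the 2023 that rose there, against 11.1% of all tested genes. Of the 415 that fell, 237 (57.1%) also fell, 13.8% of the 1723 that fell there, against 9.42% of all tested genes. Opposite calls were 4 and 11. Over all tested genes the log2 changes of the 2 guides had a Pearson r of 0.38 and a Spearman rho of 0.38. Genes are not independent replicates, and the libraries share the cell line, the protocol and the days. The iron genes TFRC and TF passed in both: TFRC was at 1084 and 1106 CPM and then 728 and 749.9 CPM in sgDDX3 cells (log2 -0.57 ± 0.07), and TF at 18 and 19.5 CPM and then 36 and 22.5 CPM (log2 0.71 ± 0.19). LDHA also passed (log2 -0.83 ± 0.07), as did SELPLG (-1.0 ± 0.11), SOCS1 (0.75 ± 0.10) and SLC6A9 (0.61 ± 0.09). Glycolysis and hypoxia had 11 members lower and 1 higher of 31 tested in sgDDX3 cells.

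The difference between the changes of the 2 guides, tested in the same fit, passed for 676 genes (3.7%), 434 with a higher (2.37%) and 242 with a lower (1.32%) change in sgDDX3 cells. Without one of the 4 sgGal4 libraries or of the 2 sgDDX3 libraries of day 0 it was 255 to 330. The lists of amino acid supply had fewer members that rose in sgDDX3 cells. One-carbon synthesis had 3 higher and 3 lower of 22 there, the ATF4 list 7 higher and 2 lower of 24, and transporters 2 higher and 7 lower of 17. Of 20 tRNA synthetases 4 passed, each lower. In sgDDX3 cells 11.1% of all tested genes rose and 9.42% fell, so several of these counts were near the share over all genes. The difference itself passed for 4 of 22 one-carbon genes, 4 of 24 ATF4-list genes, 3 of 17 transporters and 4 of 20 synthetases, all with a lower change in sgDDX3 cells. PHGDH was at 149 and 139 CPM and then 216 and 198 CPM in sgDDX3 cells, a log2 change -0.56 ± 0.15 apart from that of sgGal4 (adjusted p = 0.0416). TRIB3 went there from 194 and 179 CPM to 226 and 177 CPM, a difference of -0.73 ± 0.18 (adjusted p = 0.022). The day 3 libraries of the 2 guides did not overlap for either gene, with those of sgDDX3 cells lower. Nor did the day 0 libraries, where those of sgDDX3 cells were higher. Part of each difference therefore lay in the day 0 levels. CISH was at 108 and 102 CPM and then 115 and 114 CPM in sgDDX3 cells (difference -0.67 ± 0.10), and SLC40A1 at 144 and 143 CPM and then 137 and 129 CPM (difference 0.59 ± 0.10). Histones and S phase genes had 42 of 44 and 35 of 40 members lower in sgDDX3 cells, and the difference passed for 23 and 10.

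**Figure D3:**
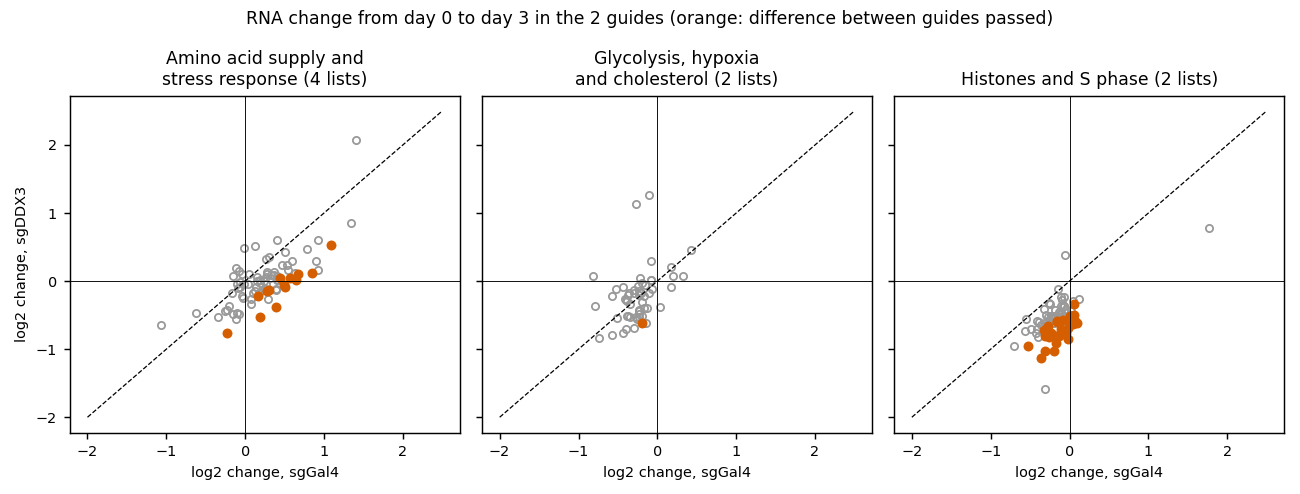
Log2 change in RNA from day 0 to day 3 in sgGal4 cells (horizontal axes) against sgDDX3 cells (vertical axes) for tested members of 8 gene lists in 3 panels; the dashed line marks equal change. Orange points are genes whose difference between guides passed an adjusted p of 0.05. In the amino acid panel and the histone and S phase panel these lie below the line.

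Ribosome footprints were sequenced in the same groups, as libraries of their own. Of 19780 genes tested in footprints 250 (1.26%) passed from day 0 to day 3 in sgGal4 cells, 139 higher (0.703%) and 111 lower (0.561%). Footprint counts were noisier, with a biological coefficient of variation of 9.99% against 6.13% in RNA, and the count rested on every library: 12, 15, 91 and 14 genes passed without day 0 replicate 1, day 0 replicate 2, day 3 replicate 1 and day 3 replicate 2. Of 594 genes that rose in RNA and were tested in both, 56 (9.43%) rose in footprints, 61.5% of the 91 that did so among genes tested in both. Of 403 that fell, 59 (14.6%) fell in footprints, 67.0% of 88, and 1 gene went the opposite way. Over 14853 genes the changes in the 2 assays had a Pearson r of 0.44 and a Spearman rho of 0.50, from the same cells and days. TF footprints went from 10.2 and 11.7 CPM to 46.8 and 38.1 CPM (log2 1.96 ± 0.21, adjusted p = 0.00081). PHGDH footprints went from 192 and 175 CPM to 428 and 354 CPM (log2 1.09 ± 0.17) and LDHA footprints from 685 and 710.0 CPM to 374 and 429.5 CPM (log2 -0.80 ± 0.11). In all 3 the size was close to that in RNA. One-carbon synthesis had 7 of 21 members higher in footprints, the ATF4 list 2 of 24, and glycolysis and hypoxia 12 of 31 lower. Ribosomal protein genes, nearly all slightly lower in RNA, did not show this shift in footprints. The large subunit list had a footprint median of 0.01, with 30 of 47 above 0. The small subunit list had -0.04, with 20 of 32 below 0, and no member of either list passed. BCL6, which rose in RNA, had a footprint change of 0.10 ± 0.37 (adjusted p = 0.93), and UNC5B 0.26 ± 0.33 (adjusted p = 0.768). The small nucleolar RNA host gene SNHG4, which is non-coding, had -0.01 ± 0.56 in footprints.

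**Figure D4:**
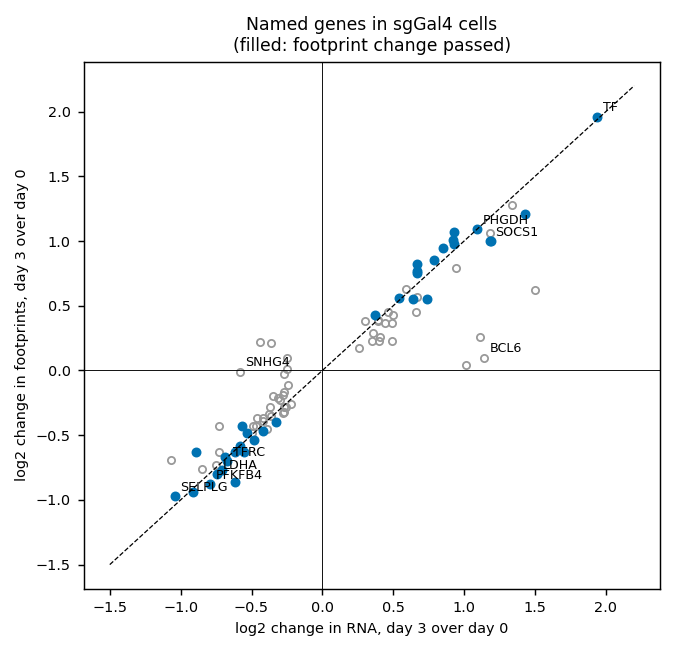
Log2 change from day 0 to day 3 in sgGal4 cells in RNA (horizontal axis) against ribosome footprints (vertical axis) for the 89 named genes that passed in RNA and had a footprint value; the dashed line marks equal change. Filled points (34) passed in footprints, and 85 of the 89 had the same sign in both assays. The 89 were picked by their RNA change, and the same-sign share over all genes was not counted.

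Day 14 shows where the levels stood later. The day 14 and day 3 comparisons share libraries, so only levels and each comparison's own values are given. At day 14, TF was at 52.8 and 53.8 CPM, TFRC at 647 and 645 CPM and SLC40A1 at 80.2 and 86 CPM in sgGal4 cells, against day 3 by log2 -0.20 ± 0.16, -0.05 ± 0.07 and -0.19 ± 0.07, none of which passed. PHGDH was at 274 and 261 CPM, SOCS1 at 37.2 and 35.1 CPM and LDHA at 336 and 333 CPM, with log2 changes from day 3 of 0.02 ± 0.10, 0.03 ± 0.09 and 0.14 ± 0.07 that did not pass. These genes therefore stood at day 14 near their day 3 levels. From day 3 to day 14, 138 of 18287 genes (0.755%) passed, 119 higher and 19 lower, against 2971 (16.2%) from day 0 to day 14, 1408 higher (7.7%) and 1563 lower (8.55%). With 1 library left out these counts were 65 to 81 and 983 to 1340. Of the named genes, SLC6A6 was back at 62.6 and 57.5 CPM at day 14 (log2 0.55 ± 0.10 from day 3, adjusted p = 0.00414) and EGR1 at 140.4 and 122 CPM (0.57 ± 0.08, adjusted p = 0.00046). EGR3 went on upward, to 8.56 and 7.53 CPM (1.84 ± 0.20, adjusted p = 6.9e-06).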

How the data were processed

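The files deposited by the authors hold raw read counts, 1 table for RNA and 1 for footprints. The tools listed in the submitters' processing notes are STAR 2.7.5a, cutadapt 3.4, DESeq2 and Bowtie2 2.4.1, and the build is GRCh38. Counting tool, annotation and strand setting were not given in the sources used here, so overlapping genes, antisense genes and near copies are uncertain. Per the labels' protocols, RNA came from a Triton lysate of the cytosol and was depleted of ribosomal RNA. After the 45 Y-linked copies of pseudoautosomal genes were dropped, 57992 genes were used, 41445 with a symbol, which held at least 98.4% of the RNA counts. The 12 RNA libraries were fitted together, to share one estimate of the spread, with edgeR 4.0.16 in R 4.3.3 (TMM scaling, filterByExpr with a minimum count of 10, quasi-likelihood F-test). P-values were adjusted by Benjamini-Hochberg over all tested genes, with a threshold of 0.05. DESeq2 1.42.0 and 12 alternatives in all were tried for the main comparison. Standard errors (SE) are the log2 change over the root of F. Replicates of a group differed by more than sampling noise.

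The lists and the choice of comparison were made with earlier results of these data known. Named are DDX3X, the 12 genes with the highest and the 12 with the lowest log2 change (passed, no overlap, symbol known, at least 10 CPM on average), the 6 highest and 6 lowest of at least 100 CPM, and up to 3 members of each of 42 lists by p. Further members that passed are named where a list is given in full, and known members that did not pass were picked after their values were seen. The values of some members are not reported here. Coordinates and promoters are RefSeq's. Python 3.11.15, pandas 2.3.3 and matplotlib 3.10.9 were used.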

Additional observations from a re-analysis of the deposited data

Results flagged for a closer look

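For 22 of the named genes the change from day 0 to day 3 differed between the guides in the test of the difference itself (edgeR, adjusted p under 0.05). Values are the sgDDX3 change minus the sgGal4 change on the log2 scale ± SE, from 2 libraries per group. The target DDX3X had -2.08 ± 0.14. The other named genes were picked by their sgGal4 change, which the difference subtracts, so a smaller change in sgDDX3 cells is partly built in. Of all 623 genes that rose in sgGal4 cells the difference passed for 67, 46 with a lower and 21 with a higher sgDDX3 change. Of the 415 that fell it passed for 47, 32 with a higher and 15 with a lower sgDDX3 change. Among the 22, those that rose in sgGal4 cells had a smaller or no rise in sgDDX3 cells. These were the iron carrier TF (-1.23 ± 0.26), the surface genes PRSS8 (-0.94 ± 0.26) and SDC3 (-0.64 ± 0.17), and the amino acid and stress genes PHGDH (-0.56 ± 0.15), PCK2 (-0.56 ± 0.13), TRIB3 (-0.73 ± 0.18), MARS1 (-0.55 ± 0.09) and YARS1 (-0.40 ± 0.10). CISH (-0.67 ± 0.10), HAX1 (-0.51 ± 0.12), LONP1 (-0.55 ± 0.10), PLK1 (-0.37 ± 0.10) and ALAS2 (-0.55 ± 0.10) differed in the same direction. Some genes that fell in sgGal4 cells fell further in sgDDX3 cells, namely F2RL3 (-0.89 ± 0.21), PCNA (-0.41 ± 0.11), CDC45 (-0.39 ± 0.10) and EGR1 (-0.55 ± 0.12). PPFIA4 (0.72 ± 0.16), SLC40A1 (0.59 ± 0.10), FADS1 (0.35 ± 0.10) and SNHG3 (0.46 ± 0.12) fell in sgGal4 cells, and their change was higher in sgDDX3 cells. Of these 4, FADS1 passed as lower in sgDDX3 cells too (-0.27 ± 0.07). The sgDDX3 changes of PPFIA4 (-0.03 ± 0.11), SLC40A1 (-0.10 ± 0.07) and SNHG3 (0.02 ± 0.09) did not pass.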

How the results depend on the processing

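Of 1080 values of named genes under alternatives, 913 kept their side of the threshold, 165 no longer passed and 2 newly passed, both of them DDX3X, as lower. Thinning day 3 replicate 1 to the total of replicate 2, chosen after seeing the data, left 862 genes. For sgGal4 day 3 against day 0 (1038 genes), leaving out 1 library left 101 to 672 genes, the lowest without day 3 replicate 1. With only the 6 sgGal4 RNA libraries in the fit 2557 genes passed, and with only the 4 libraries compared 2587 (1274 higher, 1313 lower). The lone library left in a group was assumed to vary like the other groups. Leaving out 1 library gave 2065 to 2960 genes for sgDDX3, 255 to 612 for the difference between guides, 983 to 1340 for day 14 against day 0, 65 to 81 for day 14 against day 3, and 12 to 91 for footprints. With no low-count filter 244 genes passed for day 14 against day 3 and 963 for footprints. The cause was not tested. The labels do not say whether libraries with the same replicate number share a culture or batch. Deviations of same-numbered RNA libraries from their group means correlated at -0.0047 between sgGal4 day 0 and day 3. Over all pairs of groups these correlations were -0.13 to 0.0601 in RNA and -0.257 to 0.22 in footprints. They cannot settle whether libraries were paired. The fit with a replicate block gave 864 genes here (530 higher, 334 lower), 3520 for sgDDX3, 519 for the difference, 2713 and 117 for day 14 against days 0 and 3, and 262 for footprints. In the main comparison SDHD, ACLY, RPL38, RPL35A and PSMD11 did not pass with this block in edgeR (adjusted p = 0.0502, 0.07, 0.0656, 0.0558 and 0.0519, in this order). Nor did ERN1, HSPA1B, TIGAR and CSF3R (adjusted p = 0.0633, 0.0625, 0.0506 and 0.0523, in this order).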
